A study of Mus musculus with 3 samples.

Results

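Imprinted genes are transcribed mainly from the copy inherited from 1 parent. The 41 genes described here were a fixed list of imprinted loci, 38 of them protein-coding and 3 of them noncoding (H19, Airn and Meg3), out of 37252 genes annotated on 20 chromosomes of the mouse genome, and all 41 were found in the annotation. They were listed by name, and no value in these data enters the rule, although the list was chosen with earlier results of these data known. For each gene, enriched regions were looked for within 2 kb of every annotated transcript start (185 starts in all), and a gene was called in a library when at least 1 bp of a region of the list named for a P threshold of 1e-09 fell there.

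The regions came from ChIP-Seq of mouse embryonic stem cells (ESCs), with 1 library in each of 3 groups and no replicate. The H2A.Z-WT library came from ESCs carrying a lentiviral transgene of wild-type H2A.Z fused to YFP, and the H2A.Z-AP3 library from ESCs carrying the same construct with the acidic patch substitutions G92N, D97N and S98K, which replace H2A.Z residues by those of H2A. In both lines the transgene was under a CMV promoter induced by 1 µg/ml of doxycycline through rtTA, cells were sorted for YFP, endogenous H2A.Z was depleted with hairpins against its 3' untranslated region, and the tagged protein was precipitated with an antibody to GFP. The third library was precipitated with an antibody to trimethylated lysine 27 of histone H3 (H3K27me3) from cells whose genotype label is WT, and the labels do not say from which line. The strain label is V6.5 (129SvJae and C57BL/6, male) for every library, whereas the description of the transgenic lines names KH2 ESCs. The 3 groups therefore differ in transgene or in antibody, and both H2A.Z groups share the tag, the promoter, the doxycycline and the loss of endogenous H2A.Z. ESCs were grown on feeder fibroblasts that were left out at the last passage. With 1 library per group, no difference between libraries has a replicate check and no p-value is given. Intervals beside shares of genes are 95% Wilson intervals, which cover counting error over genes only.

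Imprinting is set in the germ line. Short stretches of DNA are methylated in the oocyte or the sperm, the mark is kept on that parental copy in the embryo, and neighbouring genes in the same domain are then expressed from the other copy or, where a long noncoding RNA or an insulator intervenes, from the same copy. Most such stretches known in the mouse are methylated in the oocyte and cover the promoter of a gene expressed from the paternal copy. H2A.Z is a histone variant of active and Polycomb-bound promoters that is generally depleted from methylated DNA, and H3K27me3 is the mark made by Polycomb repressive complex 2. Neither DNA methylation nor the parental copy can be read from region lists, so a region at an imprinted gene may come from either copy or from both. Whether the imprints were intact in these cultured lines was not measured.

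The zinc finger protein ZFP57 keeps imprints by binding the hexamer TGCCGC when it is methylated. The hexamer was searched on both strands within 500 bp of every start in the mm9 genome, and the sites below are shown because their place relative to H2A.Z-WT regions is described further on. The hexamer is in capitals. The sequences are written 5' to 3' on the strand that reads TGCCGC. The first group comes from the 13 genes that had the hexamer and a promoter or internal start methylated in the oocyte. For each gene the copy nearest to an annotated start was taken, and those of Peg3, Grb10, Zrsr1, Gnas and Slc38a4 are not shown. None of these nearest copies, shown or not, lay inside an H2A.Z-WT region, but other copies at Gnas and Grb10 did.
Airn, chr17:12934307-12934332, minus strand: cccctcgcatTGCCGCgcttcacgcg
Snrpn, chr7:67149996-67150021, plus strand: gcgctagtctTGCCGCaatggctcag
Peg10 and Sgce, chr6:4697219-4697244, plus strand: aagcagtgcaTGCCGCgcccccaccc
Mest, chr6:30688098-30688123, minus strand: gaggtgcggcTGCCGCagaggaaagc
Plagl1, chr10:12810538-12810563, minus strand: ccgtgggcttTGCCGCgcaacacgcc
Nnat, chr2:157385831-157385856, minus strand: ctgggcgcaaTGCCGCagccccggtg
Inpp5f, chr7:135832003-135832028, plus strand: agacagaggaTGCCGCgctcccatcg
The second group holds copies at genes without an oocyte-methylated start, picked because they lay inside H2A.Z-WT regions, which 12 of the 18 copies at such genes did not. Copies inside H2A.Z-WT regions at Zim1 and Dlk1 are not shown.
Igf2, chr7:149847131-149847156, plus strand: aaatctgtgcTGCCGCtgggacaccg
Copg2, chr6:30846895-30846920, plus strand: ctccgcccacTGCCGCacgggggcgt
Cdkn1c, chr7:150646504-150646529, minus strand: tagcagcgccTGCCGCagcctcttcg
A match is a description of the reference sequence, not a bound site.

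H2A.Z-WT was called at 31 of the 41 imprinted genes, a share of 75.6% (60.7 to 86.2%), where 61.7% of all protein-coding genes were called. H3K27me3 was called at 16 imprinted genes, or 39.0% (25.7 to 54.3%), where 18.2% of protein-coding genes were called. H2A.Z-AP3 was called at 13, or 31.7% (19.6 to 47.0%), where 23.2% of protein-coding genes were called. The interval for H3K27me3 lay above its background, whereas those for both forms of H2A.Z included theirs. Imprinted genes were annotated with a median of 3 starts and protein-coding genes with a median of 2, which gives the former more sequence in which to be called.

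**Figure D1:**
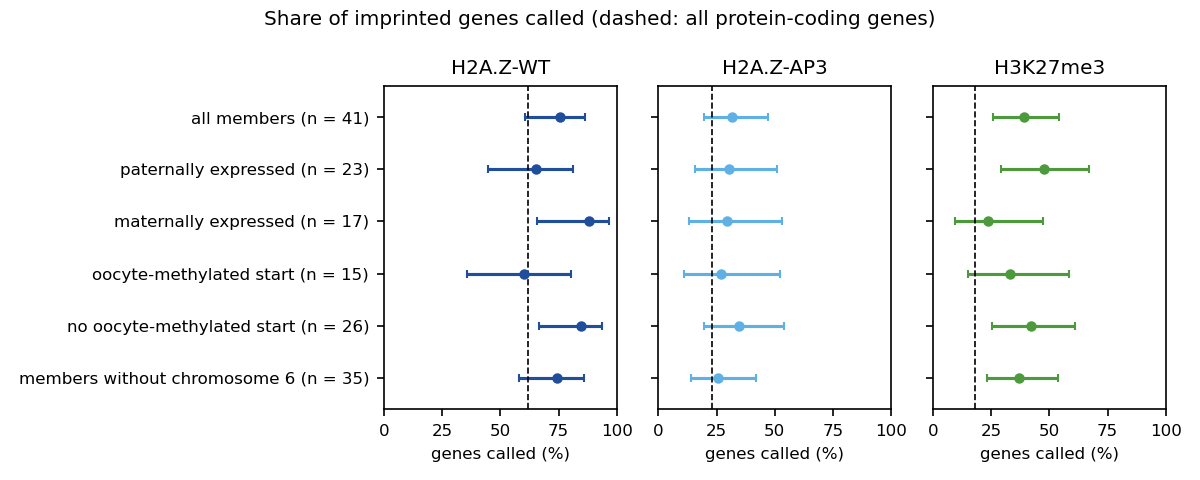
Share of imprinted genes called (x axis, percent of genes) in each library for all 41 genes and 5 subsets (rows), with 95% Wilson intervals as bars and the share of all protein-coding genes as a dashed line. The H3K27me3 interval for all members (25.7 to 54.3%) lies above its dashed line at 18.2%, while the intervals for both forms of H2A.Z over all members include theirs.

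Genes called in H2A.Z-AP3 or H3K27me3 were mostly called in H2A.Z-WT too, as over protein-coding genes. All 13 genes called in H2A.Z-AP3 were also called in H2A.Z-WT, and 15 of the 16 genes called in H3K27me3 were, all but Zdbf2. Among protein-coding genes, 94.5% of those with H2A.Z-AP3 and 95.2% of those with H3K27me3 had H2A.Z-WT. Both forms of H2A.Z were called at 21.9% of protein-coding genes, and H2A.Z-WT with H3K27me3 at 17.3%. All 3 libraries called 7 genes, or 17.1% (background 7.9%), and these were Igf2, Ndn, Peg10, Sgce, Dio3, Rasgrf1 and Gnas. Both forms of H2A.Z without H3K27me3 were called at 6 (background 14.0%), H2A.Z-AP3 without H2A.Z-WT at 0 (background 1.28%), H2A.Z-WT alone at 10 (background 30.4%), and 9 had no region of any kind (background 36.3%). Peg10 with Sgce, and Zrsr1 with Commd1, share windows and regions, so each pair gives the same regions to both names. The genes called in all 3 libraries depended on the list. In the lists named for a P threshold of 1e-12, Igf2, Dio3 and Gnas had no H2A.Z-AP3, and Peg10 and Sgce had no H3K27me3. Ndn and Rasgrf1 kept all 3, and Dlk1 had all 3 there.

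Over the whole series, the list of H2A.Z-WT held 78359 regions, that of H2A.Z-AP3 14599 and that of H3K27me3 16970. The lists give no read counts or heights, so the depth behind them is unknown, and a longer list may come from deeper sequencing or from stronger enrichment. Of 10 pluripotency genes, H3K27me3 was called at Esrrb and at none of the others, Pou5f1, Nanog and Sox2 among them. Of 8 genes of feeder fibroblasts, it was called at 6. On chromosome 6, H2A.Z-AP3 was called at 43.6% of protein-coding genes, against 22.1% on the other chromosomes together.

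H3K27me3 covered many bases at a subset of the imprinted genes. Covered bases were summed over all regions near all starts of a gene, so they need not form an unbroken stretch. At Grb10 they came from 8 regions, the longest of 1075 bp, and at Gnas from 6, the longest of 1175 bp. At 11 of the 41 genes (26.8%) there were at least 1000 bp of H3K27me3 within 2 kb of a start, where 9.14% of protein-coding genes had as much, and the 1000 bp limit was chosen after the values were seen. These were Igf2, Rasgrf1, Grb10, Dlk1, Dio3, Ascl2, Gnas, Cdkn1c, Igf2r, Peg12 and Magel2. The median over the 16 genes called was 2025.5 bp, against 1000 bp over protein-coding genes called. Windows ran from 4001 to 28982 bp with the number of starts, so covered bases are also given as a share of the window. Of the 11 genes, H3K27me3 covered the smallest shares at Igf2r (11.5%), Gnas (12.2%) and Grb10 (12.9%). It covered 33.3% at Dlk1, 33.7% at Magel2 and 35.7% at Peg12, and the larger shares of the others are given below.

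**Figure D2:**
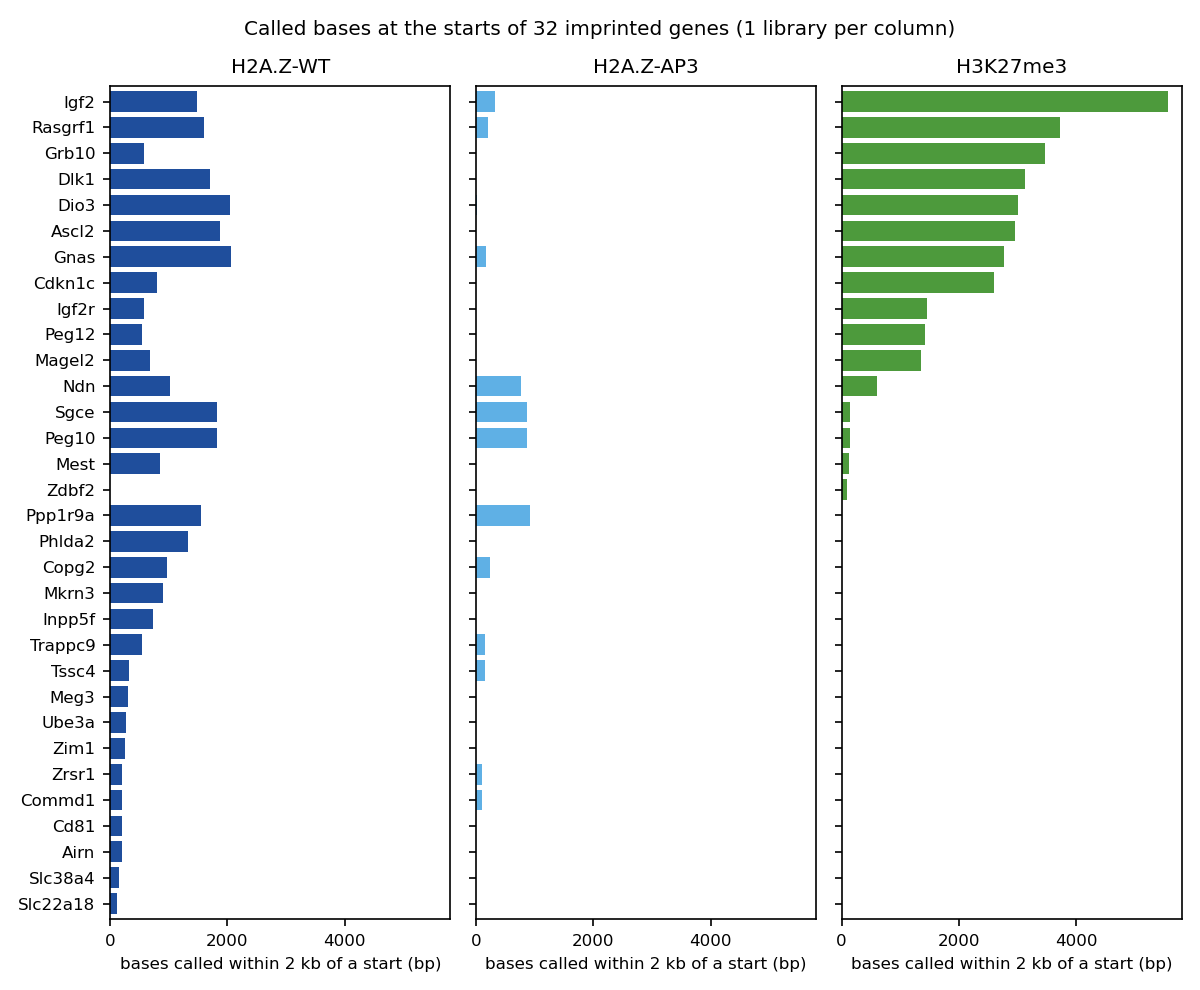
Bases called within 2 kb of a start (x axis, bp) for each of the 32 imprinted genes with a region in any library (rows), 1 panel and 1 library per column, ordered by H3K27me3. The H3K27me3 bars run from 5555 bp at Igf2 to 100 bp at Zdbf2, and many genes with long H2A.Z-WT bars, such as Phlda2, Ascl2 and Dlk1, have none for H2A.Z-AP3.

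Igf2, a fetal growth factor expressed from the paternal copy, had 1475 bp of H2A.Z-WT, 325 bp of H2A.Z-AP3 and 5555 bp of H3K27me3, the last covering 44.8% of its window. Every base of its H2A.Z-WT regions at starts lay inside H3K27me3. The longest H2A.Z-WT region (800 bp, chr7:149846451-149847250) covered the start whose TGCCGC copy is shown above, and the single H2A.Z-AP3 region of 325 bp lay within it. Igf2r, the receptor that clears this growth factor and is expressed from the maternal copy, had 575 bp of H2A.Z-WT, none of H2A.Z-AP3 and 1450 bp of H3K27me3. Its H2A.Z-WT region (chr17:12962351-12962925) lay over its upstream start, and 21.7% of its H2A.Z-WT bases were inside H3K27me3.

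Cdkn1c, Grb10 and Rasgrf1 differed in how the marks were laid out. Cdkn1c, an inhibitor of cyclin-dependent kinases expressed from the maternal copy, had 796 bp of H2A.Z-WT, all of it inside H3K27me3, which covered 2601 bp or 65% of the window. No H2A.Z-AP3 was called there. Grb10, an adaptor that restrains insulin signalling, had 575 bp of H2A.Z-WT, none of H2A.Z-AP3 and 3472 bp of H3K27me3. From 2 kb before to 2 kb after Grb10 there were 12 H3K27me3 regions, and 11 of them did not touch an H2A.Z-WT region. Rasgrf1, an exchange factor for Ras, had the most densely covered window, with 93.1% of it (3726 bp) in H3K27me3. H2A.Z-WT covered 1600 bp there and H2A.Z-AP3 200 bp. As at Igf2 and Cdkn1c, all its H2A.Z-WT bases lay inside H3K27me3.

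Dlk1 and Dio3 lie at opposite ends of 1 domain and encode a Notch-related transmembrane protein and the enzyme that inactivates thyroid hormone. Dlk1 had 1700 bp of H2A.Z-WT, none of H2A.Z-AP3 and 3118 bp of H3K27me3. Dio3 had 2050 bp of H2A.Z-WT, 25 bp of H2A.Z-AP3 and 3013 bp of H3K27me3, which covered 72.4% of its window. The share of H2A.Z-WT bases inside H3K27me3 was 58.8% at Dlk1 and 90.2% at Dio3. Ascl2, a basic helix-loop-helix factor needed in the placenta, carried an unbroken H2A.Z-WT region of 1875 bp (chr7:150153626-150155500), the longest of the 60 distinct H2A.Z-WT regions at imprinted starts. It had 2957 bp of H3K27me3, or 73.9% of the window, and no H2A.Z-AP3.

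Gnas encodes the stimulatory G protein alpha subunit and has several promoters imprinted in different ways. It had 2066 bp of H2A.Z-WT, 175 bp of H2A.Z-AP3 and 2775 bp of H3K27me3 over 16 starts. The regions were divided among its starts. At the start at chr2:174123360, 16 bp of H2A.Z-WT and 1200 bp of H3K27me3 lay within 2 kb, whereas at the start at chr2:174153071 there were 1375 bp of each and 175 bp of H2A.Z-AP3. Over all its starts, 18.2% of H2A.Z-WT bases were inside H3K27me3.

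**Figure D3:**
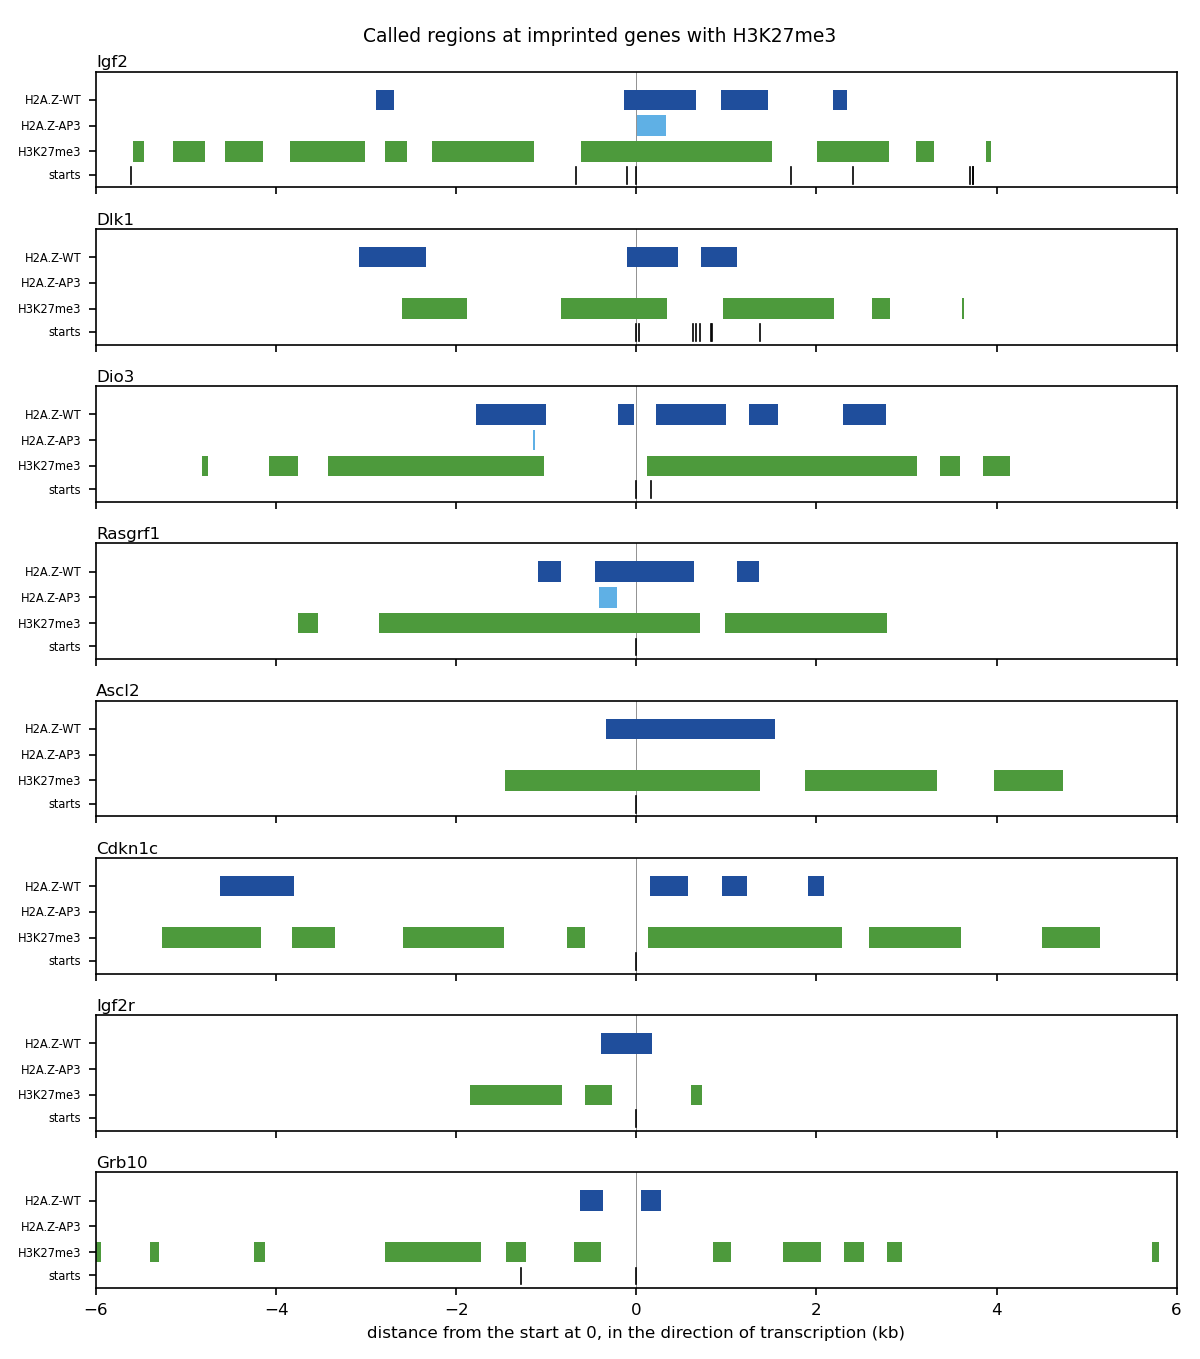
Called regions around 1 start of 8 imprinted genes with H3K27me3 (x axis, distance from that start in kb, in the direction of transcription), with the regions of the 3 libraries as bars to scale and other annotated starts as ticks. H3K27me3 bars extend past H2A.Z-WT on one or both sides at every gene drawn, and H2A.Z-AP3 bars appear at Igf2, Dio3 and Rasgrf1 and at none of Dlk1, Ascl2, Cdkn1c, Igf2r and Grb10. The genes drawn were chosen after their values were seen.

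Genes of the domain deleted or silenced in Prader-Willi syndrome did not share 1 pattern. Ndn and Magel2, which encode related MAGE family proteins, had 1025 bp and 675 bp of H2A.Z-WT, and 600 bp and 1350 bp of H3K27me3. H2A.Z-AP3 covered 775 bp at Ndn in a single region (chr7:69493176-69493950) inside the H2A.Z-WT region, and none at Magel2. Peg12, related to inhibitors of GSK3, had 550 bp of H2A.Z-WT and 1430 bp of H3K27me3 without H2A.Z-AP3. Mkrn3, a ring finger protein, had 900 bp of H2A.Z-WT alone, and Ube3a, the ubiquitin ligase lost in Angelman syndrome, had 275 bp of H2A.Z-WT alone. Snrpn, at the imprinting centre of the domain, had no region in any library. The nearest H2A.Z-WT region lay 104096 bp from its upstream start (chr7:67285105). It lay 239159 bp from its start at chr7:67150042, which is next to the TGCCGC copy shown above.

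Where both were called, H2A.Z-WT and H3K27me3 overlapped at 14 of 15 imprinted genes (93.3%) and at 76.8% of the 3864 protein-coding genes with both. The median share of H2A.Z-WT bases inside H3K27me3 was 58.8% over these 15 genes and 29.8% over those protein-coding genes. The exception was Mest, a hydrolase-fold protein expressed from the paternal copy, with 854 bp of H2A.Z-WT and 125 bp of H3K27me3 that shared no base. Peg10, a gene derived from a retrotransposon, and Sgce, which encodes epsilon-sarcoglycan, share a promoter region and both had 1825 bp of H2A.Z-WT, 875 bp of H2A.Z-AP3 and a single H3K27me3 region of 150 bp. Zdbf2, a zinc finger gene, was the gene with H3K27me3 (100 bp, chr1:63321576-63321675) and no H2A.Z, a combination found at 0.877% of protein-coding genes. The region lay 1733 bp from the nearest start, close to the 2 kb limit. Zdbf2 had no H3K27me3 within 2 kb of a start in the list named for 1e-12. Its most upstream start had a CpG observed/expected ratio of 0.981.

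H2A.Z-AP3 regions were shorter than those of H2A.Z-WT at imprinted starts, as they were at protein-coding starts. The 17 distinct H2A.Z-AP3 regions had a median length of 150 bp and the 60 of H2A.Z-WT 325 bp, and the medians at protein-coding starts were 175 bp and 400 bp. Of the 17, 8 (47.1%) held a region of the list named for 1e-12, against 61.7% of H2A.Z-AP3 regions at protein-coding starts. Over all windows its bases came to 17.8% of those of H2A.Z-WT, and to 14.3% over protein-coding genes. The longest coverage was at Ppp1r9a, which encodes the phosphatase-binding protein neurabin, with 925 bp beside 1550 bp of H2A.Z-WT. Peg10 with Sgce followed with 875 bp and Ndn with 775 bp, and no other gene had more than 325 bp. Genes with long H2A.Z-WT and no H2A.Z-AP3 included Ascl2 (1875 bp), Dlk1 (1700 bp) and Phlda2 (1325 bp), a pleckstrin homology protein that limits placental growth.

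Of the 13 genes with H2A.Z-AP3, 4 were on chromosome 6. Of the 6 imprinted genes of that chromosome, 4 were called in H2A.Z-AP3 (Ppp1r9a, Peg10, Sgce and Copg2), where 43.6% of protein-coding genes of that chromosome were called. Without chromosome 6, 9 of 35 imprinted genes were called, or 25.7% (14.2 to 42.1%), where 22.1% of the other protein-coding genes were called. H2A.Z-AP3 bases came to 41.6% of H2A.Z-WT bases at the imprinted genes of chromosome 6 and to 34.4% at its protein-coding genes, and to 9.67% and 12.6% on the other chromosomes. The part of the chromosome in the H2A.Z-AP3 calls at Ppp1r9a, Peg10, Sgce and Copg2 was not tested. From 2 kb before to 2 kb after Ppp1r9a there were 23 H2A.Z-AP3 regions and 15 H2A.Z-WT regions, and 14 of the former did not touch H2A.Z-WT.

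**Figure D4:**
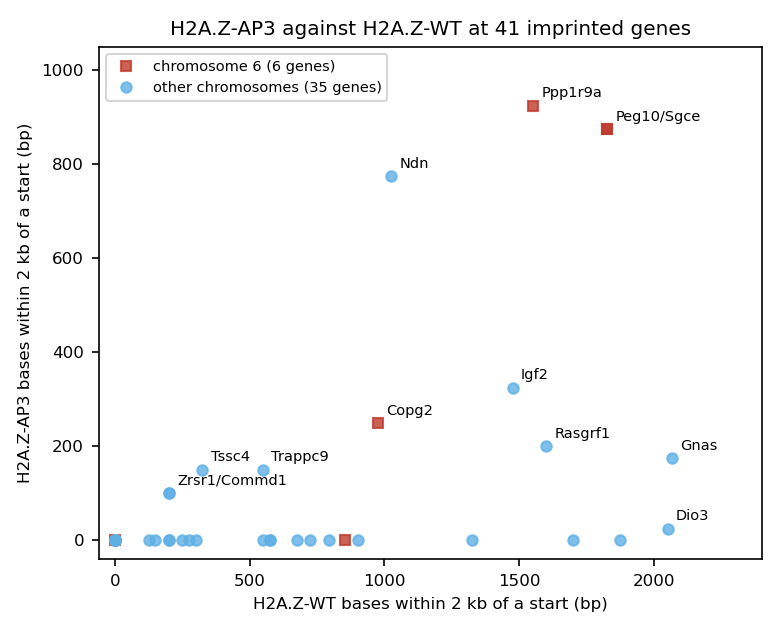
H2A.Z-AP3 bases (y axis, bp) against H2A.Z-WT bases (x axis, bp) within 2 kb of a start, 1 point per imprinted gene, with the 6 genes of chromosome 6 as squares and the 35 others as circles. Ppp1r9a, Peg10 with Sgce, and Ndn stand above 700 bp of H2A.Z-AP3, and every other gene has 325 bp or less, including genes with over 1600 bp of H2A.Z-WT.

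At Copg2 and Tssc4 the regions of both forms of H2A.Z shared no base. Copg2, a coatomer subunit gene, had 975 bp of H2A.Z-WT (chr6:30846101-30847075) and 250 bp of H2A.Z-AP3 just upstream (chr6:30847101-30847350). Tssc4, a gene of the Kcnq1 domain, had 325 bp of H2A.Z-WT (chr7:150254526-150254850) and 150 bp of H2A.Z-AP3 downstream (chr7:150255426-150255575). These are 2 of 13 genes (15.4%), near the 12.3% of protein-coding genes with both that shared no base. The remaining H2A.Z-AP3 calls were 200 bp at Rasgrf1, 175 bp at Gnas, 150 bp at Trappc9, a subunit of a vesicle-tethering complex with 550 bp of H2A.Z-WT, and 25 bp at Dio3. Zrsr1, related to a splicing factor, and its host gene Commd1, a regulator of NF-kappa B and copper balance, shared 1 H2A.Z-AP3 region of 100 bp inside an H2A.Z-WT region of 200 bp. Commd1 had 1125 bp of H2A.Z-WT in the list named for 1e-12.

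The 10 genes called in H2A.Z-WT alone ranged from 125 to 1325 bp. Phlda2 (1325 bp), Mkrn3 (900 bp) and Inpp5f, a phosphoinositide phosphatase gene (725 bp), had the most. The other 7 had 300 bp or less, and they were Meg3 (300 bp), a noncoding RNA, Ube3a (275 bp), the zinc finger gene Zim1 (250 bp), the noncoding RNA Airn (200 bp), the tetraspanin gene Cd81 (200 bp), and the transporter genes Slc38a4 (150 bp) and Slc22a18 (125 bp). At Meg3 the region lay 1686 bp from the nearest start, close to the 2 kb limit.

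No region of any library lay within 2 kb of a start at H19, Peg3, Usp29, Snrpn, Plagl1, Rtl1, Nnat, Impact and Asb4. H19 is a noncoding RNA that shares enhancers with Igf2, Peg3 and Plagl1 are zinc finger genes, Rtl1 is derived from a retrotransposon, and Asb4 is a ubiquitin ligase adaptor. Distances to the nearest H2A.Z-WT region, from whichever annotated start was closest, differed widely. They ran from 2311 bp at Plagl1 and 2586 bp at Asb4, just outside the limit, to 26503 bp at H19, 26751 bp at Peg3 and 104096 bp at Snrpn. The closest start of Plagl1 (chr10:12844665) had a CpG observed/expected ratio of 0.222, and its starts with TGCCGC lay 8072 bp or more away. The closest start of Peg3 had a ratio of 0.078, and that with the highest ratio (0.603) lay 33957 bp away. Of the 9 genes, 7 are expressed from the paternal copy, and 6 are classed as having an oocyte-methylated start, which need not be among the annotated starts. H3K27me3 and H2A.Z-AP3 were farther away than H2A.Z-WT at each of these 9 genes. At Plagl1, however, the list named for 1e-12 held an H2A.Z-WT region of 200 bp.

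Genes with an oocyte-methylated start, a class taken from general knowledge of the germline marks, were compared with the rest. H2A.Z-WT was called at 9 of 15 such genes, or 60.0% (35.7 to 80.2%), and at 22 of the 26 others, or 84.6% (66.5 to 93.8%). The intervals overlapped. H3K27me3 was called at 5 of 15 and 11 of 26, and H2A.Z-AP3 at 4 of 15 and 9 of 26. The shares of protein-coding genes called were 61.7% for H2A.Z-WT, 18.2% for H3K27me3 and 23.2% for H2A.Z-AP3. Without chromosome 6, H2A.Z-WT was called at 6 of 12 (25.4 to 74.6%) and at 20 of 23 (67.9 to 95.5%), where 61.3% of protein-coding genes off that chromosome were called. Where H3K27me3 was called at genes with an oocyte-methylated start, it covered few bases at those on chromosome 6 (150 bp shared by Peg10 and Sgce, and 125 bp at Mest). It covered more at Gnas (2775 bp) and Grb10 (3472 bp), each summed over several regions.

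CpG density was then taken into account, since 80.9% of the 11225 protein-coding genes with a start of CpG observed/expected ratio of at least 0.6 had H2A.Z-WT within 2 kb of it. This limit was chosen after the values were seen. Of the genes with an oocyte-methylated start, 10 had such a CpG-dense start, which need not be the methylated one. At 6 of these, H2A.Z-WT lay within 2 kb of a CpG-dense start. Inpp5f counted through its starts at chr7:135754842 and chr7:135754874, which held no TGCCGC. The 4 without H2A.Z-WT at a CpG-dense start were Nnat, Mest, Peg3 and Plagl1. Of the other imprinted genes, 18 had a CpG-dense start and 17 of these had H2A.Z-WT there, Zdbf2 being the exception. Commd1 is among the 17 only through the region it shares with Zrsr1, which is among the 6. H3K27me3 lay within 2 kb of a CpG-dense start at 4 of the 10 and 10 of the 18 genes, where 25.1% of the 11225 protein-coding genes had it. H2A.Z-AP3 did so at 4 of the 10 and 8 of the 18, where 31.0% had it. The most upstream start had a median ratio of 0.651 at imprinted genes and 0.549 at protein-coding genes.

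TGCCGC was present at the most upstream start of 19 imprinted genes (46.3%), and 35.1% of protein-coding genes had it there. Genes with an oocyte-methylated start had it there in 8 of 15 cases (53.3%), and the others in 11 of 26 (42.3%). At any start, a count that grows with the number of starts, 43.1% of protein-coding genes had it, and it was found at 13 of 15 genes with an oocyte-methylated start, the exceptions being Usp29 and Impact, and at 13 of 26 others. Usp29 and Impact each have 1 annotated start, with CpG ratios of 0.266 and 0.363, and whether it is the methylated one was not tested. Of 59 distinct copies at genes with an oocyte-methylated start, 5 (8.47%) lay inside H2A.Z-WT regions, 4 of them at Gnas and 1 at Grb10. Of the 38 copies at those of these genes that had H2A.Z-WT, the same 5 make 13.2%. At the other imprinted genes with H2A.Z-WT, 6 of 17 copies (35.3%) were inside, and at protein-coding genes with H2A.Z-WT 42.3% of 13021 copies were inside. With regions of either list, 7 of 59 copies (11.9%) and 7 of 18 at the other imprinted genes (38.9%) were inside. This count was made after the values were seen, and copies at 1 gene are not independent.

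Mest and Inpp5f carried both situations within 1 gene. At Mest, 4 starts between chr6:30688050 and chr6:30688063 had CpG ratios of 0.778 to 0.788 and 10 copies of TGCCGC, and no region of any library lay within 2 kb of them, the nearest H2A.Z-WT region being 4650 bp away. The upstream starts of Mest, at chr6:30683454 and chr6:30683506, had ratios of 0.432 and 0.404, no TGCCGC, and 650 bp of H2A.Z-WT. At Inpp5f, the starts at chr7:135754842 and chr7:135754874 had ratios of 0.704 and 0.702, no TGCCGC and 700 bp of H2A.Z-WT. Its start at chr7:135832003 had a ratio of 0.763, 4 copies of TGCCGC and no region within 2 kb, the nearest H2A.Z-WT region being 21103 bp away. Both starts of Inpp5f were CpG-dense and differed in H2A.Z-WT.

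At other oocyte-methylated starts H2A.Z-WT lay beside the hexamer. Airn, whose transcription silences Igf2r on the paternal copy, had 4 copies of TGCCGC, and an H2A.Z-WT region of 150 bp (chr17:12934401-12934550) lay between those at chr17:12934320 and chr17:12934641 without covering either. Between Peg10 and Sgce, H2A.Z-WT regions ended at chr6:4697125 and began again at chr6:4697376, and the single copy shown above lay in the gap. Nnat, a small membrane protein gene, and Plagl1 each had 6 copies, and Snrpn had 5, with no H2A.Z-WT within 2 kb in the list named for 1e-09. In that named for 1e-12, an H2A.Z-WT region (chr10:12810726-12810925) covered 2 of the 6 copies at Plagl1, and Airn had no H2A.Z-WT within 2 kb of a start.

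**Figure D5:**
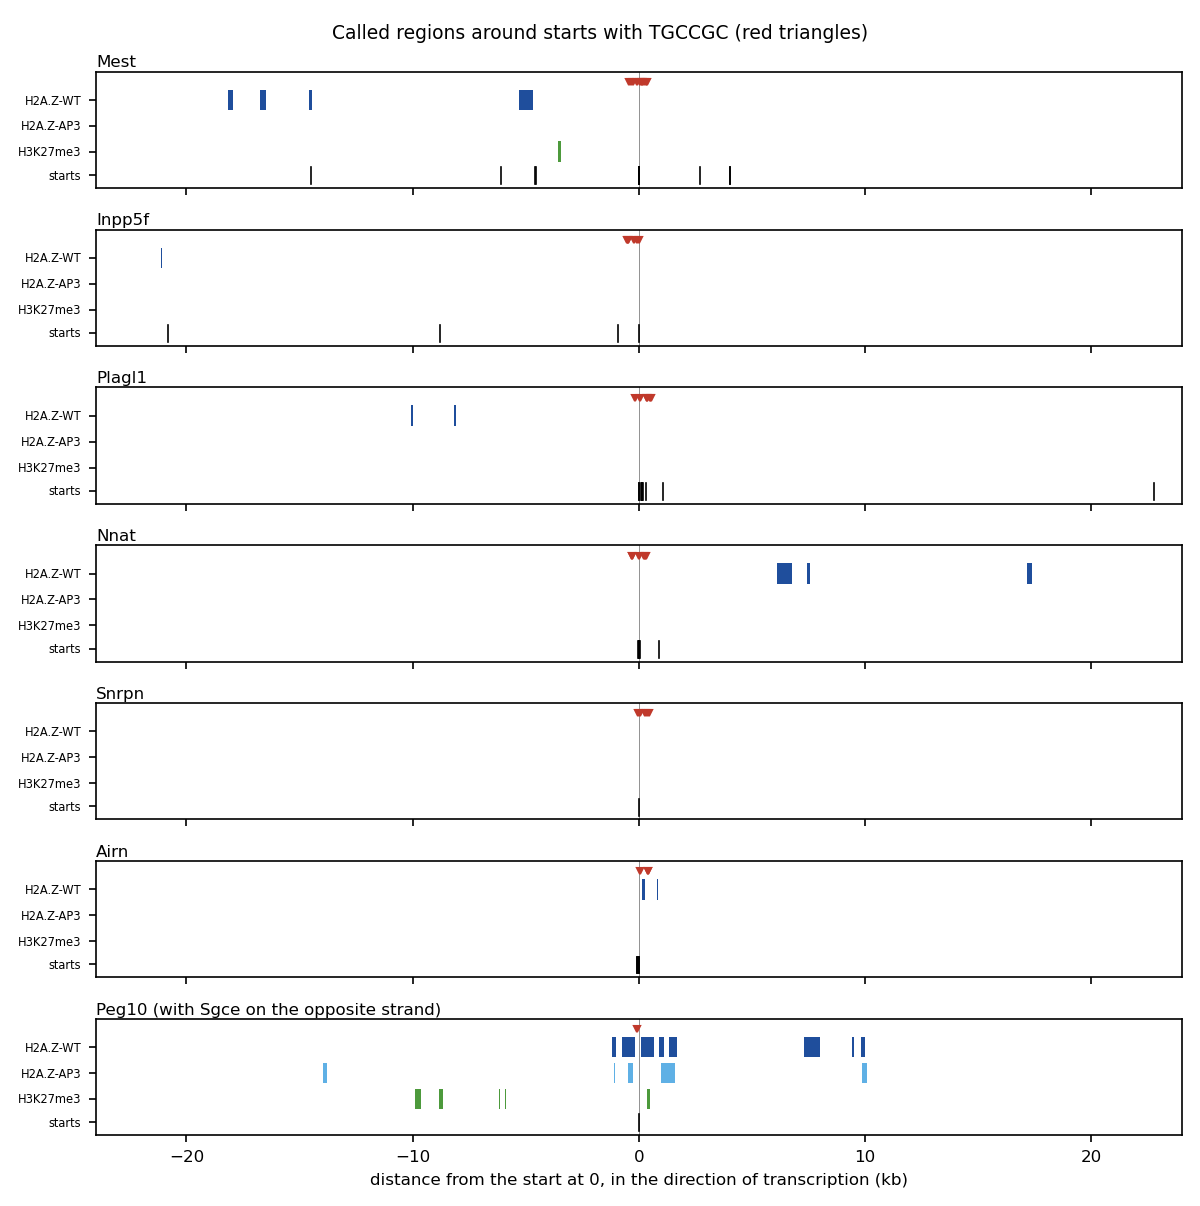
Called regions around a start with TGCCGC at 7 imprinted loci with an oocyte-methylated start (x axis, distance from that start in kb, in the direction of transcription), with the regions of the 3 libraries as bars to scale, other annotated starts as ticks and TGCCGC copies as triangles. At Mest, Inpp5f, Plagl1, Nnat and Snrpn the triangles have no bar under them and none within 2 kb in the lists named for 1e-09. At Peg10 H2A.Z-WT bars flank the triangle. At Airn they lie beside the triangles, and the copy at chr17:12934320 has them on a single side. The loci drawn were chosen after their values were seen.

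Split by the copy expressed, H2A.Z-WT was called at 15 of 23 genes expressed from the paternal copy, or 65.2% (44.9 to 81.2%), and at 15 of 17 expressed from the maternal copy, or 88.2% (65.7 to 96.7%). H3K27me3 ran the other way, at 11 of 23 paternal genes, or 47.8% (29.2 to 67.0%), and 4 of 17 maternal genes, or 23.5% (9.56 to 47.3%). H2A.Z-AP3 was at 7 of 23 and 5 of 17. All 3 pairs of intervals overlapped. Over protein-coding genes, the shares called were 61.7% for H2A.Z-WT, 18.2% for H3K27me3 and 23.2% for H2A.Z-AP3. Most genes with an oocyte-methylated start are expressed from the paternal copy, and Grb10 is the only maternal gene among them. The split by the copy expressed therefore overlaps that by oocyte methylation, and they cannot be told apart here. The 4 maternal genes with H3K27me3 were Igf2r, Grb10, Ascl2 and Cdkn1c. Gnas, with promoters of both kinds, was in neither group.

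Domains differed in how much of their length was covered. In the domain of Kcnq1, from Ascl2 to Phlda2 (chr7:150150727-150690446), H2A.Z-WT covered 4.19%, H3K27me3 4.17% and H2A.Z-AP3 0.167%. The H19-Igf2 domain had 3.41%, 6.8% and 0.341%, and the Dlk1-Dio3 domain 2.37%, 1.4% and 0.0541%. Over the genome, H2A.Z-WT covered 1.102%, H3K27me3 0.3659% and H2A.Z-AP3 0.1372%. The Snrpn-Ube3a domain was below the genome in every library, with 0.124%, 0.144% and 0.0248%, and the Peg3 domain held 0.385% of H2A.Z-WT and nothing of the other libraries. The domain of Peg10 and Sgce on chromosome 6 had 1.84% of H2A.Z-WT, 0.161% of H3K27me3 and 1.09% of H2A.Z-AP3.

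Neighbours and regulators of imprinting were described from separate lists. Of 29 further genes of imprinted domains, H2A.Z-WT was called at 21 (72.4%, background 61.7%), H2A.Z-AP3 at 7 (24.1%, background 23.2%) and H3K27me3 at 11 (37.9%, background 18.2%). Sfmbt2, a Polycomb group gene with 675 bp of H2A.Z-WT and 250 bp of H2A.Z-AP3, had the most H3K27me3 of these (3309 bp), and Klf14, a transcription factor gene next to Copg2 on chromosome 6, had 1625 bp of H2A.Z-WT, 900 bp of H2A.Z-AP3 and 1736 bp of H3K27me3. Those with H2A.Z-AP3 and no H3K27me3 were Tspan32, Dhcr7, Nap1l5, Herc3 and Ddc, with 25 bp (Ddc) to 550 bp (Herc3). Those with H3K27me3 and no H2A.Z-AP3 were Kcnq1, Th, Osbpl5, Kcnk9, Begain, Slc22a3, Atp10a, Calcr and Nespas, and Kcnq1, a potassium channel gene, had 1725 bp of H2A.Z-WT and 2967 bp of H3K27me3.

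Of 21 genes whose products set or keep imprints, H2A.Z-WT was called at 14 (66.7%, background 61.7%), H2A.Z-AP3 at 2 (9.52%, background 23.2%) and H3K27me3 at 5 (23.8%, background 18.2%). The H2A.Z-AP3 calls were Dnmt1, the maintenance DNA methyltransferase (75 bp), and Arid4a (25 bp). The H3K27me3 calls were Dnmt3a (575 bp) and Dnmt3b (50 bp), the enzymes that methylate DNA anew, Ctcfl (25 bp), Dppa3 (75 bp) and the demethylase gene Kdm1b (125 bp). Zfp57 itself and its partner Trim28 had no region in any library.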

How the data were processed

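ChIP-Seq of mouse ESCs was analysed from the region lists of 3 libraries. The authors aligned single-end Illumina reads to mm9 with Bowtie 0.12.3, extended them, allocated them to bins of 25 bp and called bins enriched for H2A.Z with a Poisson model at 1e-09 and a minimum over input. For H3K27me3, the methods refer to peaks from earlier work of the authors, and whether these are the list used here is not given in the sources used here. Nor is the making of the lists named for 1e-12. The deposited values are region coordinates, in no unit of signal, without counts, heights or p-values, and no library was pooled.

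Starts were those of all transcripts of GENCODE vM1 (mm9). Members were called by overlap of at least 1 bp within 2 kb of a start, with Wilson 95% intervals. Counts over protein-coding genes served as background. CpG ratios and TGCCGC were read within 500 bp of starts from the mm9 genome. Each member was accounted for, and members called by H2A.Z-AP3, H3K27me3 or more than 1 library were described singly. Genes of other lists were named where H2A.Z-AP3 or H3K27me3 was called, and others after their values were seen. The members and lists were chosen with earlier results of these data known, and the status of each imprint is general knowledge. Overlap code was tested on simulated data. Python 3.11.15, NumPy 2.4.6, SciPy 1.17.1 and Matplotlib 3.10.9 were used. Input reads were not analysed here.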

Additional observations from a re-analysis of the deposited data

Results flagged for a closer look

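The list named for 1e-12 was not a subset of that named for 1e-09. Within 2 kb of imprinted starts, 7 of its regions lay wholly outside the 1e-09 list, which the comparisons above do not use, and no control library was analysed here. At Plagl1, H2A.Z-WT had such a region of 200 bp (chr10:12810726-12810925), which covers 2 of the 6 TGCCGC copies at the gene. This is the gene with no region in the 1e-09 lists that gains H2A.Z-WT from the 1e-12 list. At Commd1, H2A.Z-WT had regions of 425 bp and 675 bp, the latter (chr11:22881676-22882350) beside its most upstream start, so that its covered bases were 1125 bp in the 1e-12 list and 200 bp in the 1e-09 list. H2A.Z-WT had further regions of 100 bp at Gnas and 200 bp at Magel2. H2A.Z-AP3 had 75 bp at Dlk1, which has none in the 1e-09 list. H3K27me3 had 100 bp at Ascl2. The reason the lists differ was not tested.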

How the results depend on the processing

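Each of 6 counts of genes was recomputed under 9 alternatives, 1 of them (counting Peg10 with Sgce, and Zrsr1 with Commd1, once) added after the data were seen, as was the count of TGCCGC copies in the other lists. All 54 values of the 6 counts stayed within 1.5 times the main count. Over all 41 genes, those called in H2A.Z-WT ran from 28 (most upstream start, 68.3%, background 58.8%) to 33 (5 kb each side, 80.5%, background 66.3%). In H2A.Z-AP3 they ran from 10 (lists named for 1e-12, 24.4%, background 18.8%) to 18 (5 kb each side, 43.9%, background 27.3%). The H2A.Z-AP3 share thus stood farther above its background at 5 kb than at 2 kb, and no interval was computed for that count. In H3K27me3 they ran from 13 to 16, and in no library from 7 (5 kb each side, background 31.9%) to 11. Without chromosome 6, H2A.Z-WT was called at 26 of 35 (background 61.3%), H3K27me3 at 13 (background 18.1%) and H2A.Z-AP3 at 9 (background 22.1%). The lists named for 1e-12 gave counts of 30 (H2A.Z-WT, background 60.0%), 13 (H3K27me3, background 15.7%) and 10 (H2A.Z-AP3, background 18.8%). With 1 library per group, no library could be left out and no spread between samples is known. No paired analysis was possible because each group has 1 library and the labels give no replicate numbers. The region lists carry no depth, so a gene without a region may have enrichment under the threshold.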
